A study of Mus musculus with 20 samples.

Results

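The cells described here are single CD122+T-bet- thymocytes, one of the sorted stages of the intraepithelial lymphocyte precursors (IELPs), with and without *C-myc*. They were sorted from 1 TBGR *C-myc* Δ/ΔCd4 mouse and from 1 TBGR *C-myc* fl/fl mouse, both of 2 weeks of age by their labels. TBGR is a reporter in which T-bet, a transcription factor of mature IELPs, drives the green protein ZsGreen, and both mice carried it. Both mice also carried the floxed *C-myc* allele, and the Δ/ΔCd4 mouse carried in addition a Cre recombinase driven by *Cd4*, which acts in thymocytes once they switch on *Cd4*. Since *Cd4*-Cre acts in all descendants of such thymocytes, loss of *C-myc* was not limited to IELPs. Members were chosen by sort gate and genotype alone, with at least 2000 transcripts per cell outside the mitochondrial genes and spike-ins. Of 384 wells with a cell, 259 passed, out of 1413 passing cells of 1920 in the series. The Δ/ΔCd4 mouse gave 137 cells (58 and 79 in libraries 1 and 2) and the fl/fl mouse 122 cells (34, 35, 31 and 22 in libraries 1 to 4). CD122+T-bet- cells of a TBGR mouse of 4 weeks with no floxed allele named in its labels (94 and 92 cells) are given beside them, and differ from both in age.

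With 1 mouse per genotype there is no replicate of the genotype. The libraries of a genotype come from the same mouse, so their spread is technical, no test was run, and genotype cannot be told apart from mouse. The comparison asks how the transcripts of IELPs at this stage differ when *C-myc* is deleted.

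C-MYC pairs with MAX and binds the E-box CACGTG in promoters. In lymphocytes it is known as a factor that activated cells need in order to grow, since it drives genes of ribosome assembly, translation, glycolysis, nucleotide synthesis and the cell cycle. IELPs are thymocytes that have recognised self antigen strongly and yet survive, leave the thymus and settle in the gut epithelium. CD122 is the receptor chain they use for IL-15.

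Levels are given per 1000000 transcripts of a library (CPM), summed over its cells, always in the order of the library numbers. A log2 ratio is the level over the 2 Δ/ΔCd4 libraries divided by that over the 4 fl/fl libraries, and its 95% interval (exact, from the summed transcripts) covers counting error only. A gene was called higher or lower when the ratio passed 1.5-fold and no library of one genotype overlapped the other, among genes with at least 100 transcripts over the 6 libraries.

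The libraries were not equally good. Median transcripts per cell were 4926.5 and 4921 in the Δ/ΔCd4 libraries and 6035, 4939, 6923 and 3298 in the fl/fl libraries. A set of 22 genes that mark low-quality cells (*Kcnq1ot1*, *Gm10715*, *Gm42418*, *Gm10800* and genes that follow one of them over cells) took 38.3% and 31.1% of the transcripts in the Δ/ΔCd4 libraries, 29.7%, 28.4%, 26.9% and 59.0% in the fl/fl libraries and 14.6% and 17.3% in the TBGR libraries. Library 4 of the fl/fl mouse therefore stood apart, with the lowest depth and the fewest cells, and most other genes read lower in it. Summed with the other 3, it held 94268 of the 757480 fl/fl transcripts, against 716596 in the Δ/ΔCd4 libraries. The plot of the libraries shows these measures. Sets of 48 cell barcodes were shared by Δ/ΔCd4 library 1 with fl/fl libraries 1 and 3, and by Δ/ΔCd4 library 2 with fl/fl libraries 2 and 4.

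**Figure D1:**
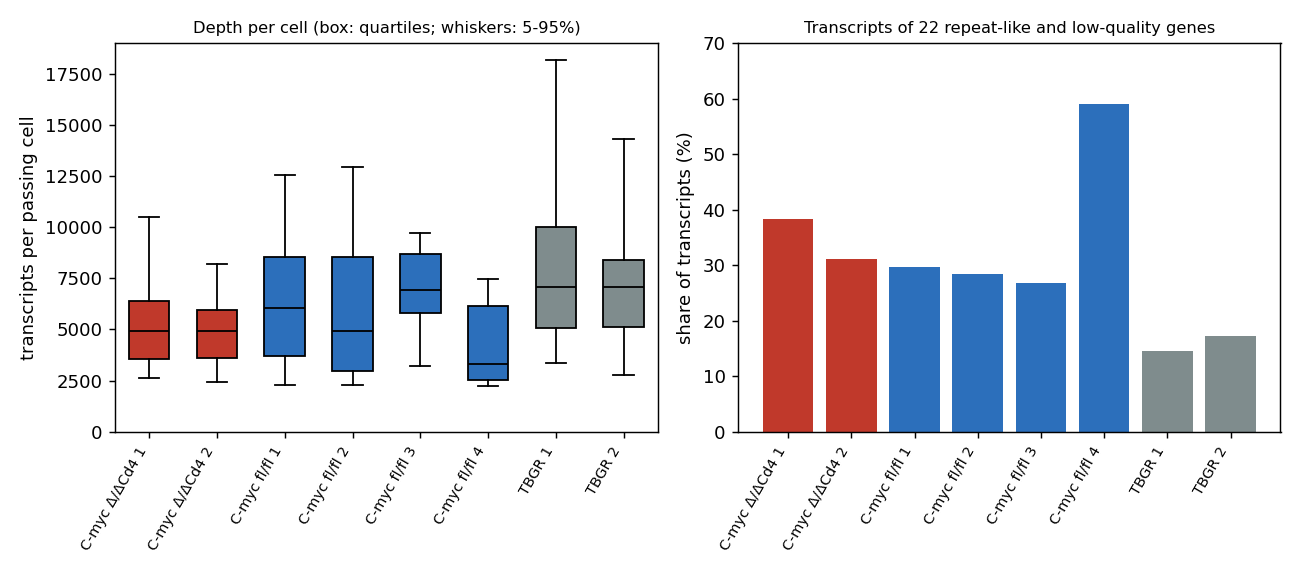
For each library of CD122+T-bet- cells, the left panel shows transcripts per passing cell (line, median; box, quartiles; whiskers, the central 90% of cells) and the right panel the share of transcripts from the 22 genes of low-quality cells in percent. Library 4 of the fl/fl mouse has the lowest median per cell (3298) and the highest share of such genes (59.0%).

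The genotype labels were first checked on *Myc* itself. *Myc* was at 44.5 and 9.96 CPM in the Δ/ΔCd4 libraries and at 73.8, 125, 135 and 10.6 CPM in the fl/fl libraries, from 18 and 75 transcripts in all. Its log2 ratio was -1.95 (-2.81 to -1.22). Fl/fl libraries 1 to 3 lay above both Δ/ΔCd4 libraries, while fl/fl library 4, where *Myc* had 1 transcript, lay among them. In the TBGR mouse *Myc* was at 46.4 and 62.0 CPM. After every cell was thinned to 2000 transcripts, 4.38% of Δ/ΔCd4 cells (exact interval 1.62 to 9.29%) and 13.1% of fl/fl cells (7.69 to 20.4%) held a *Myc* transcript, against 9.68% of TBGR cells. In the preceding CD122-T-bet- cells the shares were 3.91%, 3.33% and 1.72% in the same order. Without thinning they were 10.2%, 31.1% and 28.5% of the CD122+ cells. CEL-Seq2 counts the 3' end of a transcript, and whether that end of *Myc* lies in the deleted part is not given in the sources used here, so the transcripts left in the Δ/ΔCd4 cells do not tell how many cells kept the gene. *Myc* had fewer than 100 transcripts and was not among the genes tested for a call. Its partner *Max* (-0.35, -0.84 to 0.12) and *Mga*, a repressor that also pairs with MAX (0.57, 0.10 to 1.05), were not called, and they were the 2 tested of 12 genes of this network.

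The gate was checked on *Il2rb*, which encodes CD122. It was at 178 and 256 CPM in the Δ/ΔCd4 libraries and 254, 205, 239 and 159 CPM in the fl/fl libraries (log2 ratio -0.01, -0.33 to 0.31). After thinning, 31.4% of Δ/ΔCd4, 32.8% of fl/fl and 36.6% of TBGR cells held an *Il2rb* transcript, against 0.781%, 2.50% and 1.72% of CD122- cells. *Tbx21*, the gene of T-bet, had 2 and 5 transcripts in all. Without thinning the *Il2rb* shares were 50.4%, 59.8% and 73.7% of the CD122+ cells and 1.56%, 5.83% and 2.87% of the CD122- cells. The Δ/ΔCd4 and fl/fl libraries overlapped for the marker of the gate.

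Of 2113 genes tested, 494 (23.4%) were called higher and 251 (11.9%) lower in the Δ/ΔCd4 cells, together 35.3%. Which direction had more calls depended on the scaling, the libraries and the cells. With the 22 low-quality genes left out of the totals, 24.2% of 2091 genes were higher and 18.7% lower. Without fl/fl library 4, 450 (22.3%) of 2017 genes were higher and 536 (26.6%) lower. Without Δ/ΔCd4 library 2, 245 (17.9%) of 1370 genes were higher and 297 (21.7%) lower. In cells with a mitosis transcript, described below, 108 (9.69%) of 1115 genes were higher and 209 (18.7%) lower. The counts of each list below are to be read against these shares. By the ratio alone, without regard to overlap, 563 genes were at least 1.5-fold higher and 511 at least 1.5-fold lower. The median log2 ratio over all genes tested was 0.06.

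**Figure D2:**
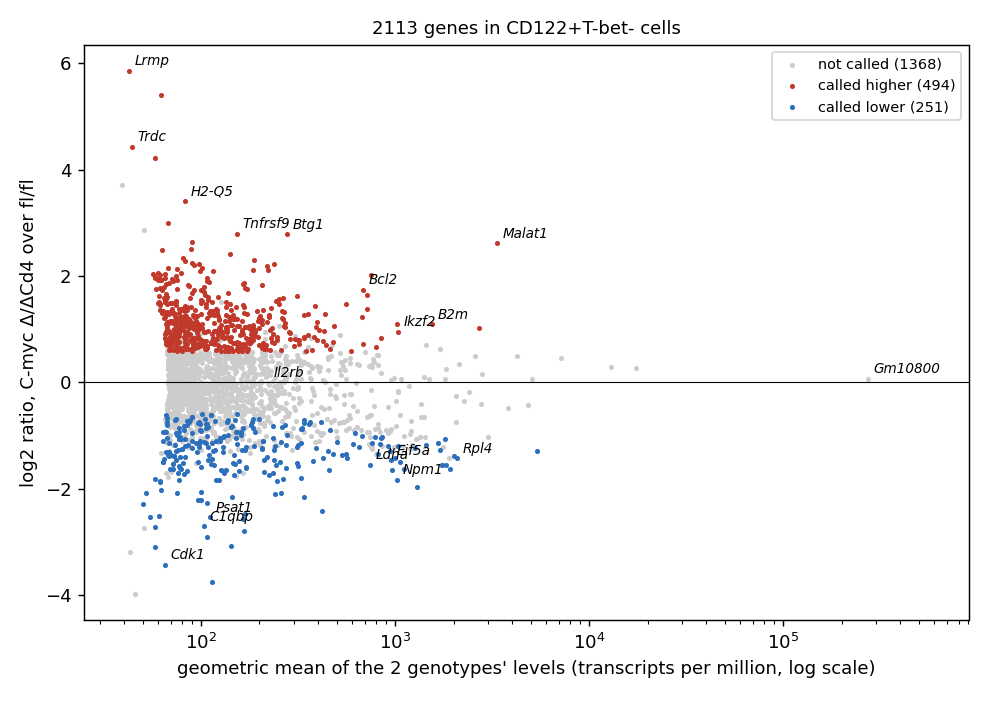
Each point is 1 of the 2113 genes tested, placed by the geometric mean of its levels in the 2 genotypes (CPM, log axis) and its log2 ratio of Δ/ΔCd4 over fl/fl, with genes called higher in red, lower in blue and others in grey. The 251 genes called lower include *Npm1* (-1.82) and *Ldha* (-1.55), and the 494 called higher include *Malat1* (2.62) and *Bcl2* (1.74).

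Cell division moved with the genotype and has to be read beside every other group. A transcript of at least 1 of 10 mitosis genes was found in 35 of 137 Δ/ΔCd4 cells (25.5%, 18.5 to 33.7%), in 92 of 122 fl/fl cells (75.4%, 66.8 to 82.8%) and in 76.3% of TBGR cells. These shares were not thinned, and median transcripts per cell were 4921, 5984 and 7073.5 in the same order. After thinning, *Mki67* of these genes was found in 7.30%, 30.3% and 19.4% of cells, and *Cdk1* in 0.730%, 20.5% and 7.53%. Of the cell cycle list, 31 of 55 genes were tested, of which 21 were called lower and 3 higher. *Cdk4*, the kinase that starts the cycle with the D cyclins, was at 184 and 187 CPM against 678, 432, 573 and 329 CPM. *Ccnd2*, the D cyclin that partners it, went the other way, at 1362 and 1583 CPM against 636, 761, 911 and 191 CPM (log2 ratio 1.09, 0.94 to 1.24). *Smc4*, a subunit of condensin, was also called higher (1.24, 1.05 to 1.43), although the condensin gene *Ncapd2* had one of the lowest ratios of all (-2.71, -3.61 to -1.99). *Uhrf1*, *Lig1* and *Asf1b*, which copy DNA methylation, join DNA ends and place histones at replication, were at -2.53, -2.22 and -2.29. For all of these but *Ccnd2* and *Smc4* the fl/fl libraries lay above the Δ/ΔCd4 libraries.

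To keep division apart from the rest, cells with and without a mitosis transcript were also compared separately, 35 against 92 cells with one and 102 against 30 cells without. This split rests on measured transcripts, and shallow cells are more often without one, so it is a description. Among cells without a mitosis transcript the fl/fl cells carried 48.1% of low-quality genes against 34.2% in the Δ/ΔCd4 cells, which raises all other ratios there. The median ratio over genes tested was 0.56 in the cells without and -0.27 in the cells with a mitosis transcript, and list medians below are to be read against these.

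Promoters of 4 genes are shown for the E-box to which C-MYC binds. *Cdk4*, *Ldha* and *Impdh2* were called lower, and *Tnfaip3* was called higher and shows that the motif is found on both sides. Each is the 250 bases before the start site in RefSeq (GRCm38.p6), read 5' to 3' on the strand of the gene, with CACGTG in capitals. They are chr10:127063285-127063534 (+) for *Cdk4*, chr7:46845554-46845803 (+) for *Ldha*, chr9:108560186-108560435 (+) for *Impdh2* and chr10:19015411-19015660 (-) for *Tnfaip3*.
Cdk4: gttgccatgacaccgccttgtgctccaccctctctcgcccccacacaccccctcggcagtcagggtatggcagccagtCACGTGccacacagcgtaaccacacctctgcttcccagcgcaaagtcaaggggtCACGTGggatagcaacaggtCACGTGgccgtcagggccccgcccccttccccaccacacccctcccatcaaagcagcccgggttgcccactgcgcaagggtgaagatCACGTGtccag
Ldha: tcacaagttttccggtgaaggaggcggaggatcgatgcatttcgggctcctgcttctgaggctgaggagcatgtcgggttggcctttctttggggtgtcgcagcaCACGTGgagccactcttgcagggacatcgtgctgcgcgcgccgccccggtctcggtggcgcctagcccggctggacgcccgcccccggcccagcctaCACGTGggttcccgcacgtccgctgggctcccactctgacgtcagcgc
Impdh2: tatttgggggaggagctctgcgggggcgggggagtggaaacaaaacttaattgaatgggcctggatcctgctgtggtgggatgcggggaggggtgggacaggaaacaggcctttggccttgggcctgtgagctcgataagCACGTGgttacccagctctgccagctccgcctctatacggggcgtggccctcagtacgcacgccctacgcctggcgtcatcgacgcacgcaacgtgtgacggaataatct
Tnfaip3: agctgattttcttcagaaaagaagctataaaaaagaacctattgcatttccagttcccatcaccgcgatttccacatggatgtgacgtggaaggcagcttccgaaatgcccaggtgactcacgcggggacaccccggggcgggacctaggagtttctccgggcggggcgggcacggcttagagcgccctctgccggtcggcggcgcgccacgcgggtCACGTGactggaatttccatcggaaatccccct

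The *Cdk4* window held 4 copies, which begin 172, 118, 98 and 11 bases before the start, and the *Ldha* window held 2, at 145 and 48 bases. Over all genes with a promoter in the table, CACGTG, which reads the same on both strands, was found in at least 1 window of 26 of 204 genes called lower (12.7%, exact interval 8.50 to 18.1%), of 38 of 366 called higher (10.4%) and of 14.5% of the genes tested but not called. All 1578 genes tested that had a promoter stood at 13.3%, and all 27025 genes of the table at 8.09%. The share among genes called lower was thus near that of the genes tested.

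Genes of ribosome assembly were lower as a group. Of 53 genes of ribosome biogenesis and the nucleolus, 16 were tested, 11 were called lower, none higher, and all 16 ratios were below 0 with a median of -1.45. *Npm1*, the abundant nucleolar chaperone nucleophosmin, was at 429 and 630 CPM in the Δ/ΔCd4 libraries and at 2245, 1839, 2080 and 987 CPM in the fl/fl libraries. The lowest fl/fl value, in library 4, still lay above both Δ/ΔCd4 values (log2 ratio -1.82, -1.99 to -1.66). *Fbl*, the methyltransferase of ribosomal RNA, was at 73.0 and 69.7 CPM against 221, 223, 293 and 74.3 CPM. *Ncl*, nucleolin, was at 486 and 533 CPM against 1069, 1144, 1407 and 552 CPM. For both, fl/fl library 4 was just above the Δ/ΔCd4 libraries and the other 3 were well above. *Nop56* and *Nop10*, parts of the particles that modify ribosomal RNA, were at -1.46 and -1.83, *Ddx21*, a nucleolar helicase, at -1.65 and *Mybbp1a* at -1.83. The list median was -1.46 in cells with and -0.92 in cells without a mitosis transcript.

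**Figure D3:**
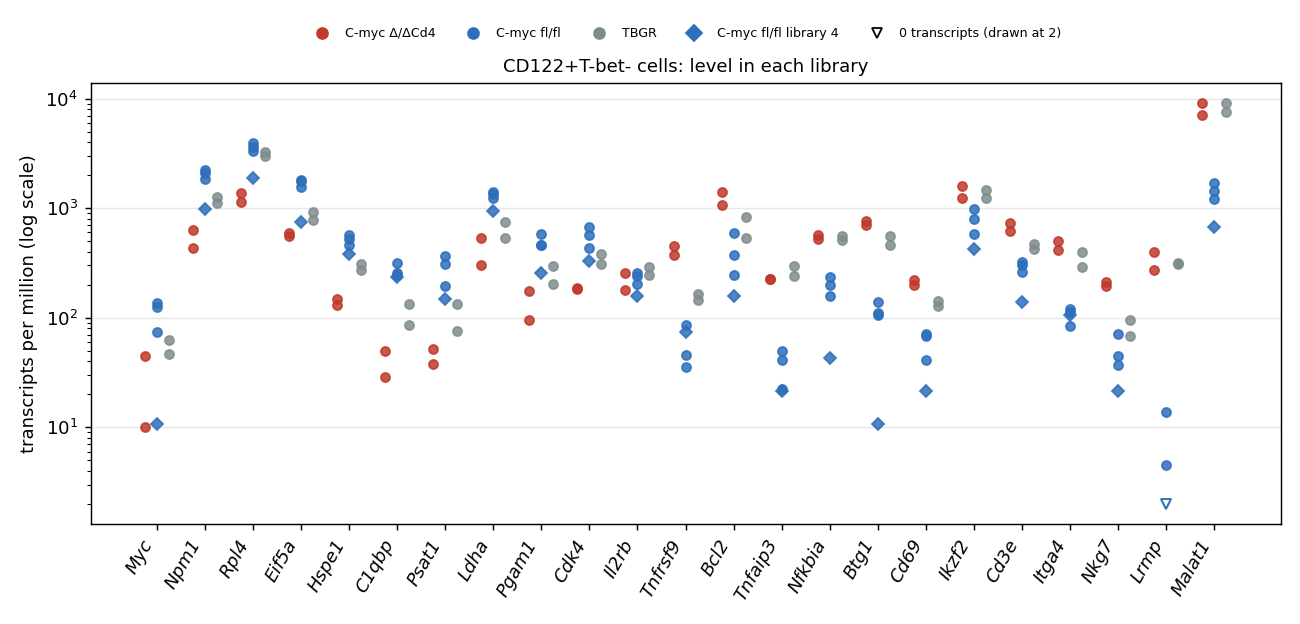
Each column is 1 gene and each point 1 library, in CPM on a log axis, for the Δ/ΔCd4 (red), fl/fl (blue, library 4 as a diamond) and TBGR (grey) libraries of CD122+T-bet- cells, with open triangles for libraries without a transcript. *Npm1* lies at 429 and 630 CPM in the Δ/ΔCd4 libraries and at 987 to 2245 CPM in the fl/fl libraries, and *Tnfrsf9* at 371 and 454 CPM against at most 85.7 CPM.

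Ribosomal proteins of the cytosol were below 0 without exception, all 67 tested of 81, with a median of -1.15, but only 26 were called. The ratios ran from -1.97 for *Rps9* to -0.57 for *Rps7*. *Rpl4* was at 1131 and 1382 CPM against 3955, 3339, 3613 and 1888 CPM. With the 22 low-quality genes out of the totals 52 of the 67 were called, and without fl/fl library 4 all 67 were. In the mitosis split all 67 ratios stayed below 0 on both sides, with medians of -0.89 in cells with and -1.06 in cells without a mitosis transcript (-1.40 with the 22 low-quality genes out of the totals). Mitochondrial ribosomal proteins had 5 of 11 tested called lower and a median of -1.10. *C1qbp*, a protein of the mitochondrial matrix, was among the lowest of all genes (-2.71, -3.34 to -2.16). It was at 28.6 and 49.8 CPM against 318, 245, 257 and 233 CPM. In fl/fl library 4, 10 *C1qbp* transcripts lay in 1 cell. Without that cell the library was at 140 CPM, still above the Δ/ΔCd4 libraries, and the log2 ratio at -2.65.

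Translation factors differed among themselves. Of 40 tested, 8 were called lower and 2 higher, with a median of -0.64, and without fl/fl library 4 there were 21 lower calls. *Eif5a*, the hypusine-carrying elongation factor, was at 553 and 587 CPM against 1789, 1554, 1755 and 743 CPM (-1.46, -1.63 to -1.30). *Eef1b2*, which recharges the main elongation factor, was at 543 and 540 CPM against 1848, 1696, 1958 and 764 CPM (-1.65, -1.82 to -1.49). *Eif2s2*, a subunit of the initiation factor that brings the first transfer RNA, was at -1.18. The main elongation factor itself, *Eef1a1*, at 3103 and 3336 CPM against 4587, 4648, 5188 and 2313 CPM, was not called (-0.48, -0.55 to -0.40). In cells without a mitosis transcript *Eif5a* was at -0.60 and *Eef1b2* at -1.45, against -1.63 and -1.44 in cells with one.

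Chaperones had 8 of 25 tested called lower and none higher, with a median of -1.02, and 18 lower calls without fl/fl library 4. *Hspe1*, the small chaperonin of mitochondria, was at 130 and 149 CPM against 526, 459, 568 and 382 CPM (-1.82, -2.16 to -1.51). *Hsp90ab1*, a main chaperone of the cytosol, was at 1048 and 1185 CPM against 2475, 2551, 2765 and 1697 CPM. *Ppia*, cyclophilin A, was at -1.06 and *Fkbp4*, a partner of Hsp90, at -1.66. In cells without a mitosis transcript the list median was -0.22.

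Metabolic groups were lower to unequal degrees. Glycolysis had 7 of 9 tested called lower, none higher and a median of -1.34. *Ldha*, which makes lactate and holds 2 E-boxes in the window above, was at 305 and 538 CPM against 1392, 1242, 1340 and 934 CPM (-1.55, -1.74 to -1.36), one of the genes in which fl/fl library 4 stood with the others. *Pkm* (-1.34), *Pgam1* (-1.85), *Aldoa* (-1.74), *Tpi1* (-1.37) and *Gapdh* (-0.89), which carry out other steps of the pathway, were also called. Nucleotide and one-carbon synthesis had 5 of 11 called lower, none higher and a median of -1.03. *Psat1*, of serine synthesis, was at 38.1 and 52.3 CPM against 364, 307, 194 and 149 CPM (-2.54, -3.13 to -2.02). *Shmt2* (-1.54), which moves one-carbon units in mitochondria, *Nme1* (-1.55), a nucleoside diphosphate kinase, and the purine enzymes *Paics* (-1.52) and *Impdh2* (-1.63) were lower with no overlap, whereas *Mat2a* (-0.49), which makes the methyl donor, was not called.

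Oxidative phosphorylation genes of the nucleus had 13 of 62 called lower, none higher and a median of -0.60. Without fl/fl library 4, 35 of 59 were called lower. *Atp5g3*, of the ATP synthase, was at -1.15 and *Ndufc2*, of complex I, at -1.66. Supply genes for amino acids, iron and polyamines differed from these lists, with none of 12 called lower, 2 higher and a median of -0.19 whose sign changed with the setting. The amino acid transporter *Slc38a2* was at 203 and 301 CPM against 129, 191, 131 and 42.4 CPM and was called higher, and *Oaz1*, the brake on polyamine synthesis, was at -0.21 (-0.40 to -0.01).

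Other genes stood among the 15 called lower with the largest ratios outside ribosomal proteins and the cell cycle list. *Snrpf*, a core protein of splicing particles, was at 88.9 and 57.3 CPM against 419, 365, 478 and 244 CPM (-2.47, -2.94 to -2.05), *Snrpd1*, another such protein, at -2.15 and *Lsm6*, of a related ring, at -2.07. *Prdx1*, which removes peroxide, was at 98.5 and 129 CPM against 595, 459, 469 and 446 CPM (-2.10, -2.47 to -1.76). *Banf1*, which binds DNA at the nuclear envelope, was at -2.07, *Mrpl42* at -1.87, and *E2f2*, a transcription factor of the cell cycle, at -2.02. *Apobec3*, a deaminase that restricts retroviruses, was at 38.1 and 14.9 CPM against 73.8, 151, 113 and 74.3 CPM, and *AI506816* at 54.0 and 44.8 against 212, 187, 262 and 95.5 CPM. In cells without a mitosis transcript *Snrpf*, *Prdx1* and *Apobec3* were at -1.88, -1.78 and -2.18, while *Lsm6* was at -0.56 and *Mrpl42* at -0.38.

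**Figure D4:**
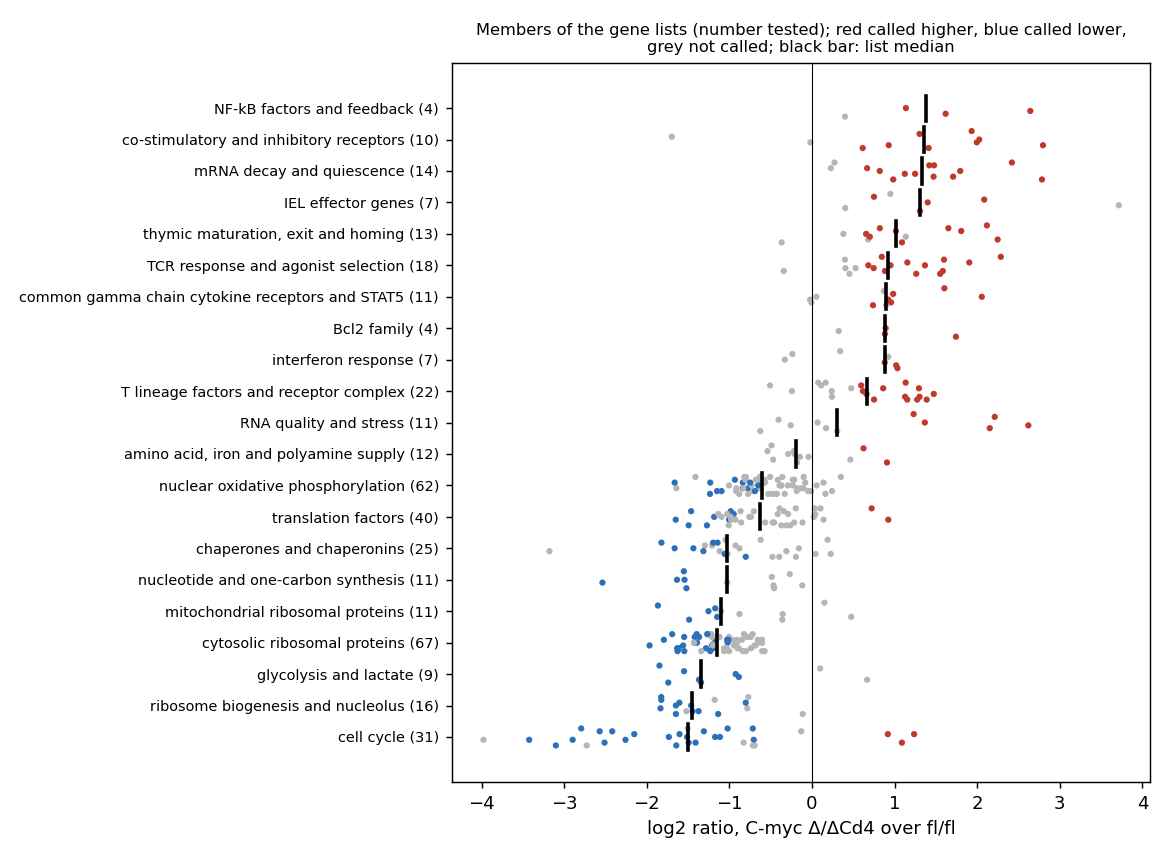
For each gene list, the points are the log2 ratios of its tested members (Δ/ΔCd4 over fl/fl, red called higher, blue called lower, grey not called) and the black bar is the list median. Ribosome biogenesis (median -1.45), glycolysis (-1.34) and ribosomal proteins (-1.15) lie lowest with the cell cycle (-1.50), and co-stimulatory receptors (1.36) and mRNA decay and quiescence (1.33) lie among the highest.

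The lists described next had more members called higher than lower. *Bcl2*, which keeps cells from apoptosis, was at 1070 and 1394 CPM against 373, 245, 595 and 159 CPM (1.74, 1.55 to 1.94), and both Δ/ΔCd4 libraries lay above all fl/fl libraries and above the TBGR mouse (530 and 836 CPM). *Mcl1*, another protector, was at 461 and 505 CPM against 244, 236, 329 and 202 CPM. *Bcl2l11*, which encodes the opponent BIM, was also called higher (0.88, 0.45 to 1.34), and *Bnip3l* was not (0.32, -0.07 to 0.72). These are the 4 tested members of the Bcl2 family list, 3 of them called higher, or 2 with the 22 low-quality genes out of the totals, where *Bcl2l11* was not called. In cells with a mitosis transcript *Bcl2* was at 1.86 and *Mcl1* at 0.31, and in cells without one they were at 1.20 and 1.51.

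Co-stimulatory and inhibitory receptors had 8 of 10 tested called higher, none lower and a median of 1.36. The 2 not called had ratios below 0, the lower of them at -1.70. *Tnfrsf9*, the TNF receptor 4-1BB of activated T cells, was at 454 and 371 CPM against 46.1, 35.6, 85.7 and 74.3 CPM (2.80, 2.35 to 3.30). After thinning, 46.7% of Δ/ΔCd4 cells held a *Tnfrsf9* transcript against 12.3% of fl/fl and 25.3% of TBGR cells (63.5%, 21.3% and 48.4% without thinning). In CD122- cells the thinned shares were 3.91%, 5.83% and 9.20% in the same order. Others of the TNF family were *Tnfrsf18* (GITR) at 114 and 129 CPM against 13.8, 31.2, 54.1 and 21.2 CPM, *Tnfrsf1b* (TNF receptor 2, 1.41), *Cd27* (0.93) and the ligand *Tnfsf8* (CD30 ligand, 2.00). *Cd96*, a receptor of the immunoglobulin family, was at 2.03, and *Cd160* at 0.61 just passed the fold.

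Genes of NF-kB and its feedback had 3 of 4 tested called higher. *Tnfaip3*, which encodes the inhibitor A20, was at 225 and 227 CPM against 41.5, 22.3, 49.6 and 21.2 CPM (2.64, 2.07 to 3.31). *Nfkbia*, the inhibitor IkBa, was at 527 and 565 CPM against 157, 236, 198 and 42.4 CPM (1.62, 1.34 to 1.91), and *Tnip1*, a partner of A20, was at 1.14. The factor *Nfkb1* was not called (0.40, 0.09 to 0.72). In the TBGR mouse *Tnfaip3* (241 and 298 CPM) and *Nfkbia* (551 and 513 CPM) stood with the Δ/ΔCd4 libraries.

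The list of the T cell receptor response and agonist selection had 13 of 18 called higher, none lower and a median of 0.92. With the 22 low-quality genes out of the totals 11 were called. In cells with a mitosis transcript 1 of the 10 tested was called, near the share of all genes called higher there (9.69%). *Jun* and *Fos*, early genes of the list of RNA quality and stress that are known to rise when tissue is taken apart, moved the same way (2.21 and 2.15), and their part in these ratios was not tested. *Nr4a1*, an early target of the receptor, was at 394 and 625 CPM against 207, 240, 257 and 95.5 CPM, and *Nr4a2* at 518 and 408 CPM against 64.5, 191, 248 and 31.8 CPM. *Cd69* was at 222 and 199 CPM against 41.5, 71.2, 67.7 and 21.2 CPM (1.90, 1.41 to 2.45), *Ikzf2* (Helios) at 0.95 and *Pdcd1* (PD-1) at 0.75. In the TBGR mouse *Ikzf2* (1344 CPM) and *Pdcd1* (249 CPM) stood near the summed Δ/ΔCd4 levels (1435 and 271 CPM). *Nr4a1* (325 CPM in the TBGR mouse) lay between those of Δ/ΔCd4 (523 CPM) and fl/fl cells (218 CPM). The list was not uniform, since *Egr2* (0.53), *Cd5* (0.53) and *Id3* (-0.34, -0.59 to -0.09) were not called. In cells with a mitosis transcript *Nr4a2* was at 0.07 and *Nr4a1* at 0.69, against 2.35 and 1.67 in cells without one, while *Cd69* was at 1.78 and 2.21. The plot of list medians by mitosis sets these beside the other lists.

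**Figure D5:**
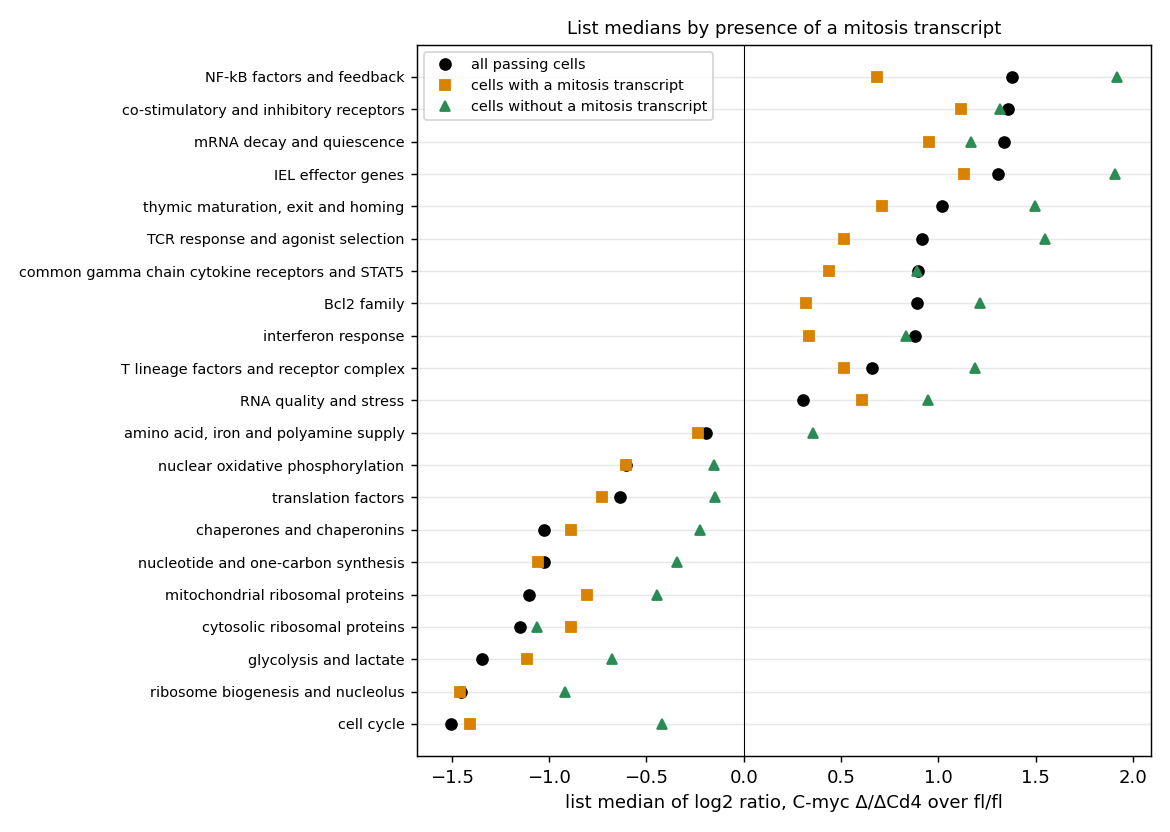
For each gene list, the points are median log2 ratios (Δ/ΔCd4 over fl/fl) of the members tested in all passing cells. Circles are all passing cells, squares cells with a transcript of the 10 mitosis genes and triangles cells without one. The cell cycle triangle takes in mitosis genes that have no transcript in those cells by definition. With and without a mitosis transcript, ribosomal proteins have medians of -0.89 and -1.06, chaperones -0.88 and -0.22, and T cell receptor response genes 0.51 and 1.55.

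T lineage factors and the receptor complex had 13 of 22 tested called higher and none lower (median 0.66). *Cd3e* was at 613 and 734 CPM against 304, 263, 325 and 138 CPM (1.29, 1.06 to 1.54), *Cd3g* at 0.60, and the phosphatase *Ptprc* (CD45) at 1.39. The factors *Gata3* (1.30) and *Bcl11b* (1.27) were called, and the receptor constant region *Trbc1* was not (0.17, 0.08 to 0.25). *Myb* and *Bach2*, factors of immature and resting lymphocytes, were at 1.60 and 1.55, although *Bach2* was not called with the 22 low-quality genes out of the totals.

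Maturation, exit and homing had 9 of 13 called higher and none lower (median 1.02). *Itga4*, the integrin chain used for entry into the gut, was at 413 and 498 CPM against 120, 84.6, 113 and 106 CPM (2.12, 1.77 to 2.50). *Ccr9*, the receptor for the chemokine of thymus and small intestine, was at 200 and 194 CPM against 27.7, 35.6, 67.7 and 21.2 CPM (2.25, 1.70 to 2.88), and above the TBGR libraries (95.5 and 46.1 CPM) as well. Of its 141 transcripts in Δ/ΔCd4 cells, 44 lay in 1 cell of library 2, without which that library was at 86.8 CPM, still above the fl/fl libraries but below TBGR library 1 (log2 ratio 1.73). *B2m*, the light chain of class I molecules, was at 2287 and 2233 CPM against 927, 1180, 1241 and 658 CPM, and the heavy chain gene *H2-D1* at 1.65 and *H2-Q5* at 3.41. Class I genes and the *Gimap* and *Gbp* families have near copies, and the authors discarded reads of more than one origin, so levels of *H2-Q5*, *Gimap3* (2.50) and *Gbp10* (2.99) are uncertain. *Klf3*, a factor of resting cells, was at 1.81.

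Among cytokine receptors and their signals 6 of 11 tested were called higher, none lower, with a median of 0.90. *Stat6* was at 2.06, the kinase *Pim2* at 1.60 and *Jak1* at 0.98. The common chain *Il2rg*, at 454 and 518 CPM against 567, 463, 474 and 477 CPM, was as flat as *Il2rb* (-0.02, -0.24 to 0.19). *Il6st*, the gp130 chain of the IL-6 family, was at 295 and 515 CPM against 59.9, 116, 94.7 and 42.4 CPM (2.30, 1.92 to 2.72), and *Kit*, the receptor of stem cell factor, at 114 and 179 CPM against 9.22, 31.2, 22.6 and 63.6 CPM (2.48, 1.82 to 3.28). Of the effector genes of intestinal lymphocytes, 4 of 7 tested were called higher, with *Nkg7* at 2.08, *Id2* at 1.40, *Ctsw* at 1.31 and *Runx3* at 0.75. *Xcl1* (343 and 264 CPM against 73.8, 49.0, 266 and 329 CPM) varied between the fl/fl libraries as much as between genotypes, and *Gzmb* had 31 and 29 transcripts in all.

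Genes of mRNA decay and quiescence had 12 of 14 tested called higher, none lower and a median of 1.33. *Btg1*, which slows growth by directing mRNA decay, was at 696 and 759 CPM against 111, 107, 140 and 10.6 CPM (2.78, 2.45 to 3.15), and its relative *Btg2* at 1.71. *Zfp36l1*, which binds AU-rich messages, was at 832 and 1003 CPM against 346, 258, 456 and 191 CPM. *Ypel3* was at 1.79. The factors *Klf6* (2.42) and *Zbtb20* (2.34) and the ERK phosphatase *Dusp5* (2.29), which are among the 15 genes with the largest ratios, were higher without overlap. *Malat1*, a long RNA that stays in the nucleus, was at 7127 and 9175 CPM against 1212, 1429, 1683 and 668 CPM (2.62, 2.52 to 2.72), and at 7546 and 9080 CPM in the TBGR mouse. Interferon response genes were called higher in 3 of 7 (median 0.88). The list of RNA quality and stress had 5 of 11 called higher and a median of 0.31, while the 7 members tested outside the 22 low-quality genes had a median of 1.41 with those genes out of the totals.

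The largest ratio of all belonged to *Lrmp*, a membrane protein of lymphocytes, at 273 and 398 CPM against 13.8, 0, 4.51 and 0 CPM, from 246 and 4 transcripts (5.86, 4.65 to 7.91). It was at 310 and 314 CPM in the TBGR mouse, so that the fl/fl libraries were the ones that stood apart. *Trdc*, the constant region of the δ receptor chain, was at 254 and 179 CPM against 13.8, 8.90, 4.51 and 10.6 CPM (4.43, 3.44 to 5.86). Its transcripts lay in 23 of 137 Δ/ΔCd4 cells and 5 of 122 fl/fl cells, and 5 Δ/ΔCd4 cells but no fl/fl cell held more than 5 of them (the highest held 54). Without that cell Δ/ΔCd4 library 2 was at 46.0 CPM and the log2 ratio at 3.82.

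Markers of other cells were looked at in the same libraries. Of 8 γδ T cell markers, 3 were tested and 2 called higher (*Trdc* and *Tcrg-C4*), and the summed list was at 1147 and 1048 CPM against 701, 370, 208 and 276 CPM. Of 9 double positive thymocyte markers, *Ccr9* alone was tested and was called higher, as described above, *Rag1* had 1 and 0 transcripts, and the summed list was at 270 and 256 CPM against 87.6, 66.8, 90.2 and 31.8 CPM. B cell markers were summed at 111 and 518 CPM against 83.0, 75.7, 108 and 117 CPM, and of 112 transcripts of 4 defining B cell genes in Δ/ΔCd4 library 2, 103 lay in 1 cell. Without that cell B cell markers were at 190 CPM in this library. Myeloid and dendritic markers, which include class II genes, were at 63.5 and 289 CPM against 10.6 to 84.6 CPM, and 81 of their 116 transcripts in library 2 lay in the same cell, without which they were at 89.7 CPM. Summed levels were 140 and 202 CPM against 50.7 to 165 CPM for regulatory T cell markers, 105 and 132 CPM against 53.4 to 92.2 CPM for NKT markers and 95.3 and 44.8 CPM against 27.1 to 95.5 CPM for thymic epithelial markers, and erythroid markers had 3 and 1 transcripts. Markers of the IELP stages themselves were also summed. Those of agonist-selected PD-1+ IELPs were called higher in 4 of 5 tested, at 2268 and 2875 CPM against 1060, 1398, 1696 and 636 CPM. In the TBGR mouse they were at 2046 and 2462 CPM. Those of mature T-bet+ IELPs were called higher in 1 of 2, at 705 and 777 CPM against 608, 383, 438 and 276 CPM. *Id2* held 268 of these 534 Δ/ΔCd4 and 107 of these 341 fl/fl transcripts. *Ly6c2* had 56 and 14, with 37 of the 56 in 1 cell. *Il2rb* had 159 and 169, *Gzmb* 31 and 29 and *Fgl2* 14 and 8. *Klrk1* had 2 and 7, *Tbx21* 2 and 5 and *Klrb1c* 2 and 2. The sort took cells with TCRβ on their surface and without CD4 and CD8. The cell with 103 B cell transcripts was among the cells sorted by this gate. The part of other cells in the ratios was not tested.

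The TBGR mouse gives a second set of cells with *C-myc*. Of the 251 genes called lower in the Δ/ΔCd4 cells, 165 (65.7%) were nearer to the fl/fl than to the Δ/ΔCd4 level in the TBGR mouse. Of the 494 called higher, only 86 (17.4%) were, against 936 of all 2113 tested (44.3%). *Rps9* (2901 and 2660 CPM), *Rpl4* (3257 and 3019 CPM) and *Pkm* (960 and 800 CPM) in the TBGR mouse stood at the fl/fl level, and *Npm1* (1250 and 1120 CPM) and *Eif5a* (915 and 773 CPM) between the summed levels of the genotypes. Nearer to the Δ/ΔCd4 level were 86 of the genes called lower, *Eif5a* among them. Others of these were *Ldha* (649 CPM in the TBGR mouse against 435 and 1275 CPM in Δ/ΔCd4 and fl/fl cells) and *Psat1* (106 against 46.1 and 271 CPM). *Uhrf1* (29.3 against 22.3 and 132 CPM) was a further one. For *Lrmp*, *Malat1*, *Tnfaip3*, *Ptprc*, *B2m*, *Ikzf2* and *Pdcd1* the TBGR values lay near those of the Δ/ΔCd4 mouse. *Bcl2*, *Tnfrsf9* and *Ccnd2* were higher in the Δ/ΔCd4 mouse than in either of the others. *Trdc* (65.4 CPM in the TBGR mouse) was too, but this rested on few cells in Δ/ΔCd4 library 2. Without the cell that held 54 *Trdc* transcripts, that library was at 46.0 CPM, below the TBGR mouse. *Trdc* was found in 29 of 186 TBGR cells and in 23 of 137 Δ/ΔCd4 cells. The TBGR mouse also had the smallest share of low-quality genes, and age, allele and library quality cannot be told apart in it.

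Values of the same mice one stage earlier, in CD122-T-bet- cells, were set beside these without a test of the difference. *Npm1* was there at -0.21, *Eif5a* at -0.13, *Ldha* at -0.12, *Cdk4* at 0.00, *Rpl4* at -0.12, *C1qbp* at -0.43 and *Rps9* at -1.11, each nearer to 0 than in CD122+T-bet- cells. *Tnfrsf9* was at -0.42 from 14 and 20 transcripts, *H2-D1* at -0.37 and *Bcl2* at 0.73. In contrast, *Lrmp* (3.90), *Tnfaip3* (2.34), *Klf6* (2.16), *Cd69* (1.61), *Malat1* (1.57) and *Nr4a1* (1.24) were higher in the CD122- cells of the Δ/ΔCd4 mouse too.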

How the data were processed

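CD122+T-bet- thymocytes, from which CD4+ and CD8+ cells had been depleted, were sorted singly into plates and sequenced by CEL-Seq2. The series text calls the sorted cells NK1.1+ and the study's methods NK1.1-. *Klrb1c*, which encodes NK1.1, had 2 transcripts in each genotype. Reads were demultiplexed with bcl2fastq 2.17.1.14 and aligned with BWA 0.6.2-r126 to GENCODE VM9 transcripts, merged per gene locus, and reads with more than one origin were discarded. What the authors deposited are expected counts, the number of UMIs of 6 bases per gene and cell corrected for repeated draws among 4096 possible UMIs and not normalized between cells. All values corresponded to a whole number of UMIs under this correction. They were rounded here to whole transcripts.

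Wells without a cell were dropped, as were spike-ins and genes of the mitochondrial genome, and a cell needed at least 2000 transcripts to pass. None exceeded 2% of *Kcnq1ot1*, the limit in the study's methods. The genes that the study removed for following low-quality markers (correlation above 0.65 over cells) were kept in the main totals. No doublet caller was run. Totals per library ran from 94268 to 401730 transcripts. The precision is that of counting, and 3 transcripts, the upper limit that a count of 0 allows, correspond to 4.19 CPM in the Δ/ΔCd4 and 3.96 CPM in the fl/fl libraries. Intervals cover counting error only.

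Transcripts were summed over cells, with a pseudocount of 0.5 per group in log2 ratios. Analyses used Python 3.11.15, numpy 2.4.6, pandas 2.3.3 and scipy 1.17.1 and were tested on simulated data. Spike-ins had no counts in the libraries of the 2-week mice, so the planned ratio of transcripts to spike-ins was not computed. Samples were grouped by their labels, and wells by the population stated in them.

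The members, the 22 gene lists and the 10 marker lists were chosen with earlier results of these data known. The genes named are *Myc*, *Bcl2* and *Tnfrsf9*, genes that the study names for the comparison, the 15 called genes with the largest ratio in each direction outside ribosomal proteins, cell cycle genes and unnamed loci, and from each list the 3 members with the most transcripts up to 5 called members, and markers of other cells. *Rps7*, the end of a range, was named after its value was seen. The E-box motif was searched in RefSeq promoter windows of GRCm38.p6, matched by symbol. Alternatives varied the minimum of transcripts, the scaling, the filter on low counts, the fold, the cells and the libraries. Those that leave out low-quality genes, the comparison of cells with a mitosis transcript and the removal of the cell with the most transcripts of a gene were added after seeing the data.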

Additional observations from a re-analysis of the deposited data

Results flagged for a closer look

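Among 129 values tested over the 4 fl/fl libraries, 9 had 1 library apart from the rest by Dixon's ratio (above the 95% critical value for 4 values, which chance passes in about 1 of 20), and in 6 of these it was library 4. The share of low-quality genes had a ratio of 0.912, with 59.0% in library 4. Below the other libraries in library 4 were *Rps9* (ratio 0.875, 1008 CPM), *Tpt1* (0.841, 1973 CPM), *Eif2s2* (0.864, 223 CPM) and *Fkbp4* (0.901, 84.9 CPM), and above them was *Stat6* (0.833, 53.0 CPM). *Tpt1*, a growth-related protein, was not called, since library 4 overlapped the Δ/ΔCd4 libraries (2172 and 2041 CPM), while the other 3 fl/fl libraries lay at 4359 to 4809 CPM. In library 1 the high values were *Il2rg* (0.862, 567 CPM), *Gzmb* (0.847, 78.4 CPM) and *Prdx1* (0.842, 595 CPM).

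For 3 of the genes named, the libraries of the genotypes did not overlap at either stage, CD122+ or CD122-, but stood in opposite order. The difference between the stages was not tested. The log2 ratio of *Top2a*, a topoisomerase of dividing cells, was -2.79 in CD122+ and 1.52 in CD122- cells, a difference of -4.31. That of *Asf1b* was -2.29 and 1.03, a difference of -3.33. That of *Tnfrsf1b* was 1.41 and -2.55, a difference of 3.96, with 2 and 15 transcripts in the CD122- cells.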

How the results depend on the processing

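Of 646 comparisons of a main result with an alternative, 577 were scored as kept, 65 as moved and 4 as reversed. For 125 named genes 2712 of 2875 ratios were scored as kept, 161 as moved and 2 as reversed. A ratio was kept when it changed by less than the standard deviation over the fl/fl libraries. *Tnip1* was thus kept in all 23 alternatives while ranging from 0.23 to 2.25. Among genes, only called ones could be scored as reversed. *Il2rb*, not called, had the sign of its main ratio in 12 of 23 alternatives. Without the cell that held the most transcripts of a gene, 5 of 107 calls among named genes were lost (*Cd160*, *Pdcd1*, *Cd3g*, *Apobec3* and *Asf1b*). No paired analysis was possible because no test was run, and libraries with the same number are not paired. Depth limits genes such as *Myc*, with 93 transcripts in all.

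Genes called higher numbered 494, and 119 with cells thinned to 2000 transcripts, 933, 95 and 2591 with at least 50, at least 300 and no minimum of transcripts, 268 at 2-fold, 247 in cells without and 108 in cells with a mitosis transcript, and 188 in cells without one and with low-quality genes out of the total. Genes called lower numbered 251, and in the same order 68, 413, 93, 729, then 8 without a mitosis transcript and 100 there with low-quality genes out of the total. They were 407 with TMM factors, 391 with low-quality genes out of the total, 402 with them out of the minimum and 404 with both. Leaving out 1 library gave 245 to 464 higher and 204 to 536 lower calls, the 536 without fl/fl library 4 and the 245 without Δ/ΔCd4 library 2. Higher calls were 66.3% of all calls, 50.9% with TMM factors, 56.4% with low-quality genes out of the total and 45.6% without fl/fl library 4.

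The E-box share of genes called lower was 22.8% thinned, 18.7% with at least 300 transcripts, 0% of the few called in cells without a mitosis transcript and 20.3% there with low-quality genes out of the total, and that of genes called higher was 14.3% and 15.6% in cells without and with a mitosis transcript. The share of all genes tested was not computed in these settings, which test fewer genes. Whether these shares differ from it is therefore not known. For the TBGR mouse, nearness was always taken from the levels over all passing cells, and only the set of called genes changed with the setting. The share of lower genes for which it was nearer to fl/fl was 72.0% with at least 300 transcripts. For the 8 genes called lower in cells without a mitosis transcript the share was 100%, and 91.0% there with low-quality genes out of the total. For higher genes it was 13.4% thinned, 31.2% with no minimum and 16.8 to 21.6% when 1 library was left out.

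List medians moved as follows. With cells thinned, co-stimulatory receptors were at 1.54. With at least 50 transcripts mitochondrial ribosomal proteins were at -0.57. With at least 300, co-stimulatory receptors were at 0.93 and cytokine receptors at 0.43. With no minimum, mitochondrial ribosomal proteins were at -0.53, glycolysis at -0.79, co-stimulatory receptors at 1.01, effector genes at 0.95 and RNA quality at 1.23. In cells without a mitosis transcript mitochondrial ribosomal proteins were at -0.45, chaperones at -0.22, nucleotide synthesis at -0.34, glycolysis at -0.68, the cell cycle at -0.42, T cell receptor response at 1.55, the Bcl2 family at 1.22, effector genes at 1.90 and RNA quality at 0.94. There, with low-quality genes out of the total, the cell cycle was at -0.76, co-stimulatory receptors at 0.98, cytokine receptors at 0.55, effector genes at 1.56 and RNA quality at 1.17. Both of these cell cycle medians take in mitosis genes that the split leaves without a transcript. In cells with a mitosis transcript co-stimulatory receptors were at 1.11, the Bcl2 family at 0.32, cytokine receptors at 0.44, interferon response at 0.34 and RNA quality at 0.61. RNA quality was at 0.52 as a mean over cells, at 1.41 with low-quality genes out of the total and at 1.41 with both total and minimum changed. With 1 library left out, effector genes ranged from 1.02 to 1.29 and RNA quality from 0.24 to 0.56.

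The median of the amino acid, iron and polyamine list (-0.19) changed sign to 0.12 thinned, 0.36 in cells without a mitosis transcript and 0.0165 there with low-quality genes out of the total, and ranged from -0.38 to 0.0661 with 1 library left out, where Δ/ΔCd4 library 1 gave the change of sign. *Asf1b* changed sign to 1.68 and 1.34 in cells without a mitosis transcript, the second with low-quality genes out of the total, from few transcripts. The cause of these moves was not tested, except that thinning and higher minimums test fewer genes.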
